A study of Drosophila melanogaster with 2 samples.

Results

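The genes described here encode 6 basic leucine zipper (bZIP) transcription factors of the ATF, CREB, C/EBP and Maf families: Atf3, Atf-2, CrebB, Irbp18, slbo and tj. They are 6 of 13945 protein-coding genes in the Drosophila melanogaster annotation used. They were chosen by name, with their binding already known, and the summits reported are those of REPTOR ChIP-seq peaks within 5 kb of each gene or within 1000 bp of one of its transcription start sites (TSSs). That selection used 15 of the 5321 peaks in the final list, so the peaks and signals below are a description and were not tested.

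The data came from whole embryos aged 0 to 24 h, males and females pooled, from a transgenic fly line that stably expresses CG13624 (REPTOR) with GFP fused to its C terminus. Chromatin was sheared by sonication and immunoprecipitated with an anti-GFP antibody, in 2 biological replicates that the labels number 1 and 3. There was a single group, and no list from untagged flies was analysed here. The promoter that drives the transgene and its copy number are not given in the labels. In pooled embryos, strong binding in few cells and weak binding in many cannot be told apart.

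bZIP proteins bind DNA as dimers, with a basic region that contacts the site and a leucine zipper that pairs the partners. REPTOR and its partner REPTOR-BP belong to this class and act below the growth kinase TORC1. Many bZIP factors pair with members of other subfamilies, and ATF and C/EBP genes are known in flies as regulators of stress, metabolic and developmental gene expression.

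The sequences under the summits of Atf3, CrebB and Irbp18 show what the bound DNA looked like. Each is read 5′ to 3′ from the plus strand of the Release 6 (dm6) reference. Capitals mark a match to one of the searched motifs on either strand. The windows of 101 bp are centred on the summit. The window at Irbp18 was kept to 29 bases, because it runs through annotated untranslated sequence. The promoter summit of Atf3 (chrX:1275456-1275556), the strongest at these genes, had no match, and its window was rich in A and T, with a GC content of 32.7%.
Atf3 promoter: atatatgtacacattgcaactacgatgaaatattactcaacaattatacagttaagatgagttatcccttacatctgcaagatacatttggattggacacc
The first intronic summit of Atf3 (chrX:1273007-1273107) held a CARE site, the C/EBP-ATF response element (TGATGNAA, reverse strand), which covered the summit, in a window with a GC content of 21.8%.
Atf3 intron: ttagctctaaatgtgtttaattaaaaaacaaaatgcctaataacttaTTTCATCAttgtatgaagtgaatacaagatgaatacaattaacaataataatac
The promoter summit of CrebB (chrX:18366173-18366273) held no match.
CrebB promoter: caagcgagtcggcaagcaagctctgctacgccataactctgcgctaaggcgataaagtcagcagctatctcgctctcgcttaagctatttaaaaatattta
The summit at the internal promoter of CrebB (chrX:18370795-18370895) held a Motif 1 element (GGTCACACT), which M1BP binds at many fly promoters, starting 35 bp from the summit.
CrebB internal promoter: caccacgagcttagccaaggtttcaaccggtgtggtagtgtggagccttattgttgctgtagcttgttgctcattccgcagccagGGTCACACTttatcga
The stronger promoter summit of Irbp18 (chr3L:11098370-11098398) held no match in the 101 bp searched.
Irbp18 promoter: gctattcaaaaactgtcaaccagacactt

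Of the 6 genes, 3 had a promoter summit (Atf3, CrebB and Irbp18), where 30.3% of all protein-coding genes had one. Within 5 kb, 5 of the 6 had a summit, where 55.3% of protein-coding genes did. Both counts follow from how the genes were chosen, and nothing is read from them. The 15 summits fell at Atf3 (5), CrebB (4), Irbp18 (3), slbo (2) and Atf-2 (1), and tj had none. The signal, which the authors' peak caller gave to each call, had a median of 186 at these summits (81.9 to 941) and of 125 in the whole list (77.9 to 2773). Of the summits, 6 lay within 1000 bp of a TSS of the gene described. For 8 of the 15, the nearest TSS of any gene was that of the gene described. The other 7 lay nearer to the TSS of a neighbour, 6 of them within 300 bp of it. Read depth was not given in the files, and the signal scale differs between lists, so replicates are compared by rank.

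**Figure D1:**
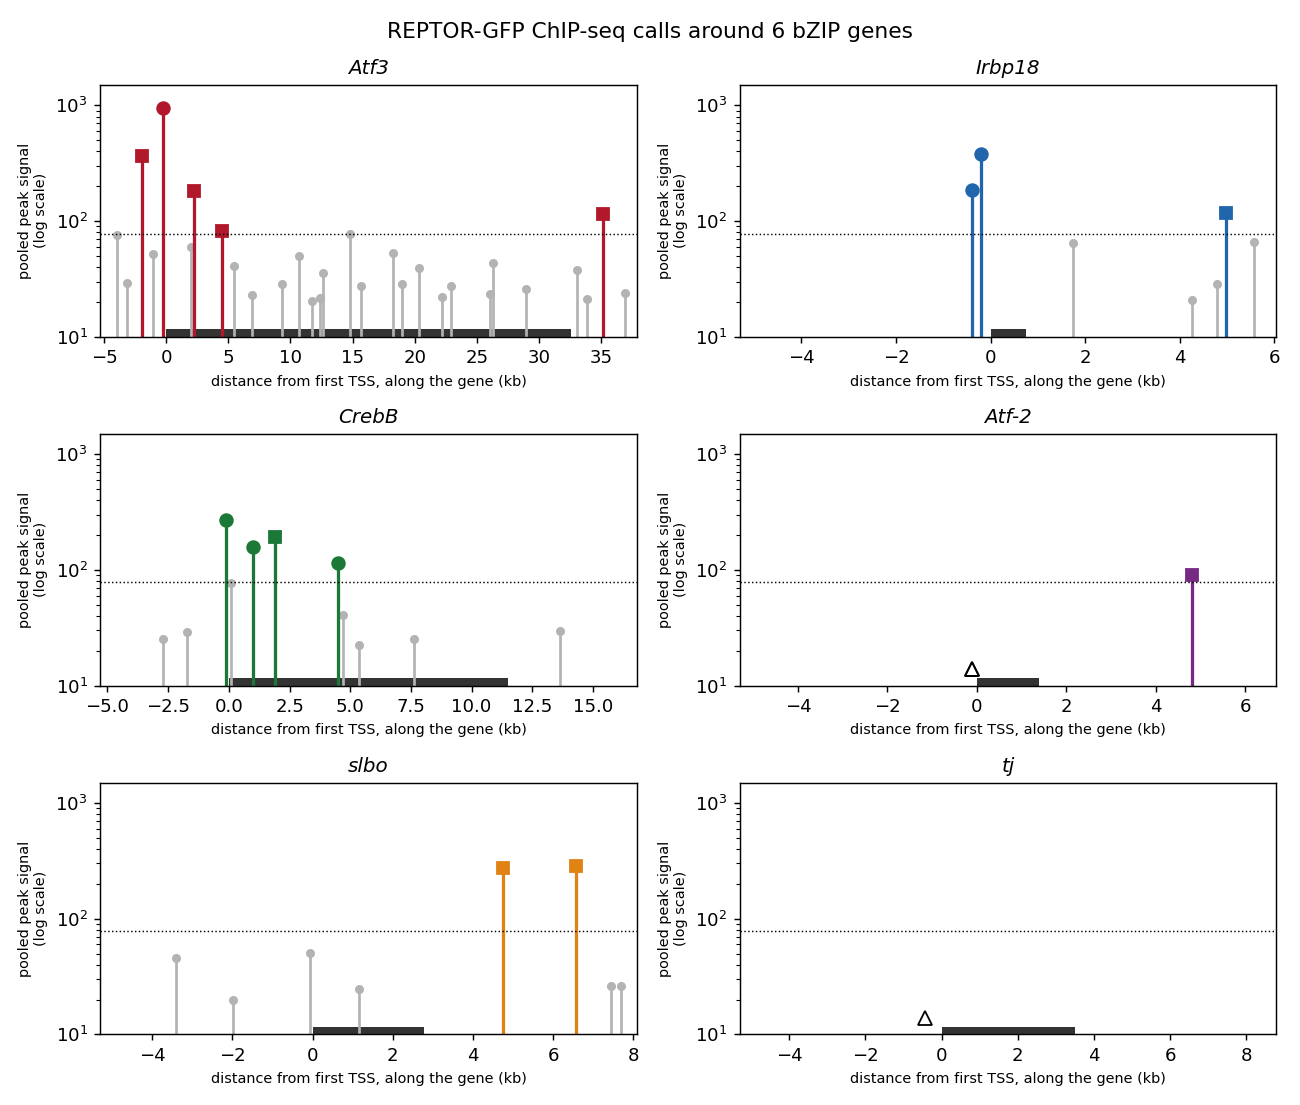
Pooled peak signal (log scale) of each call against the distance of its summit from the first TSS in kb, in the direction of transcription, for the 6 genes. Coloured circles are optimal peaks at promoters of the gene shown, coloured squares are other optimal peaks, and grey points are calls below the optimal list. The black bar is the gene and the dotted line is the lowest optimal signal of 77.9. Open triangles (drawn at an arbitrary height) are promoter calls made in replicates but not in the pooled list. They are drawn for Atf-2 and tj alone, and such calls at the other genes are not shown. The tallest peak, at 941, stands just upstream of the TSS of Atf3, the summits of slbo lie beyond the 3′ end of that gene, and tj has no optimal peak.

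Atf3, the fly relative of the stress-induced mammalian gene ATF3, had the strongest binding of the set. Its promoter peak (chrX:1275246-1275729) had a pooled signal of 941 and ranked 36 of 5321. The same site had a signal of 436 and rank 45 in replicate 1, and a signal of 512 and rank 30 in replicate 3. It thus stood among the first 50 calls of each list. The summit lay 222 bp upstream of the single annotated TSS, and no other gene had a TSS within 1000 bp. Only 43 protein-coding genes, Atf3 included, had a promoter peak at least this strong.

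The gene (FBgn0028550) spans 32545 bp on the minus strand (chrX:1242740-1275284), and 4 of its 5 summits lay around the 5′ end. An intergenic peak 1926 bp upstream of the TSS (chrX:1277078-1277316) had a pooled signal of 366 and ranked 293, with ranks of 274 and 343 in replicates 1 and 3. Inside the gene, 2227 bp from the TSS, an intronic peak (chrX:1272839-1273274) had a signal of 182 and ranked 1339, with replicate ranks of 1393 and 1405. These 3 strongest sites kept their order in both replicates. The other intronic site (chrX:1270564-1270999), 4502 bp from the TSS, was close to the end of the optimal list, with a signal of 81.9, rank 4983, and replicate ranks of 5609 and 3456. The last site (chrX:1239909-1240344) lay 2613 bp beyond the 3′ end of Atf3 and 243 bp from the TSS of CG11403, so it belongs by position to that promoter. It had a signal of 114, with 37.0 and rank 5818 in replicate 1, and 76.5 and rank 1988 in replicate 3. Here the replicate 1 summit lay 182 bp from the pooled one, the widest such gap at the 15 sites.

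Calls under the end of the optimal list were spread along Atf3. The pooled list held 24 of them within 5 kb of the gene, of which 3 had a deposited −log10 q over 2. That list was deposited as peaks and background, so its weak calls can be background. The window at Atf3 was also the longest of the set, and no rate of such calls over all genes was counted. The call nearest to the end of the optimal list was intronic, with a signal of 77.6 and rank 5351, 14756 bp from the TSS. A call 3945 bp upstream followed, with 75.2 and rank 5570. The optimal list ended at 77.9, so these calls and the intronic peak of 81.9 differed little in signal on either side of its end.

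Irbp18 (FBgn0036126) encodes a C/EBP-family factor that pairs with Xrp1 in the fly. It had the next strongest promoter signal, but at a promoter shared with a neighbour. The TSS of Irbp18 (chr3L:11097446-11098186, minus strand) lies 226 bp from that of APP-BP1, which is transcribed the other way and encodes a subunit of the enzyme that activates the ubiquitin-like protein Nedd8. The stronger summit lay between both starts (chr3L:11098189-11098572), 198 bp upstream of Irbp18 and 28 bp from APP-BP1. It fell in the annotated 3′ UTR of a further gene, CG33947. The pooled signal of this peak was 383 and its rank 273, and 309 protein-coding genes had a promoter peak at least this strong. It had a signal of 202 and rank 246 in replicate 1, and a signal of 184 and rank 303 in replicate 3. A further peak (chr3L:11098480-11098626), with its summit 202 bp away in the 5′ UTR of APP-BP1 and 43 bp from another TSS of that gene, had a signal of 186 and rank 1284, with replicate ranks of 1993 and 1180. Both replicates held both summits, in the same order of strength. With each summit given to its nearest TSS alone, both belonged to APP-BP1 and Irbp18 had no promoter summit. The third summit, 4240 bp beyond the 3′ end of Irbp18, was 13 bp from the TSS of JIL-1, a histone kinase gene. It had a signal of 118 and ranked 1940 and 5522 in replicates 1 and 3. A stronger summit of JIL-1, with a signal of 179 and rank 1408, lay 5028 bp from Irbp18, just outside the 5 kb limit. Under the end of the optimal list, 4 pooled calls lay within 5 kb of Irbp18. The strongest, with a signal of 65.3 and rank 6748, was in the 5′ UTR of JIL-1. The next, with 64.5 and rank 6861, was intergenic, and the others fell in other genes.

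CrebB (FBgn0265784), the fly CREB gene, whose product responds to cAMP signalling and is known for its role in long-term memory, had 3 promoter summits over its 4 annotated TSSs. The strongest (chrX:18366080-18366325) lay 134 bp upstream of the first TSS, with a pooled signal of 272 and rank 609, a strength that 656 protein-coding genes reached. It had a signal of 128 and rank 686 in replicate 1, and a signal of 149 and rank 543 in replicate 3. An intronic summit 784 bp downstream of a TSS (chrX:18367127-18367562) had a signal of 159. It had 64.0 and rank 2609 in replicate 1, and 91.8 and rank 1408 in replicate 3. The next, 1680 bp downstream and so outside the promoter window (chrX:18368155-18368352), had a signal of 193.5. It had 100.2 and rank 1149 in replicate 1, and 89.8 and rank 1469 in replicate 3. The order of these intronic summits by strength differed between the replicates. The summit farthest along the gene (chrX:18370627-18371062) lay 139 bp upstream of an internal TSS, in an intron of the longer transcripts, with a signal of 114 and ranks of 2748 and 3928. A lncRNA gene, CR43686, had a TSS 727 bp from it.

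The summits of CrebB were 1122, 896 and 2604 bp apart. The first TSS also had a call 71 bp inside the 5′ UTR that fell just short of the optimal list, with a signal of 77.4 and rank 5379. In replicate 3 the call there ranked 4005, and in replicate 1 it ranked 7672. The signals there were 50.55 in replicate 3 and 30.5 in replicate 1. A like call 65 bp past the internal TSS was weaker, with 40.97 in the pooled list.

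**Figure D2:**
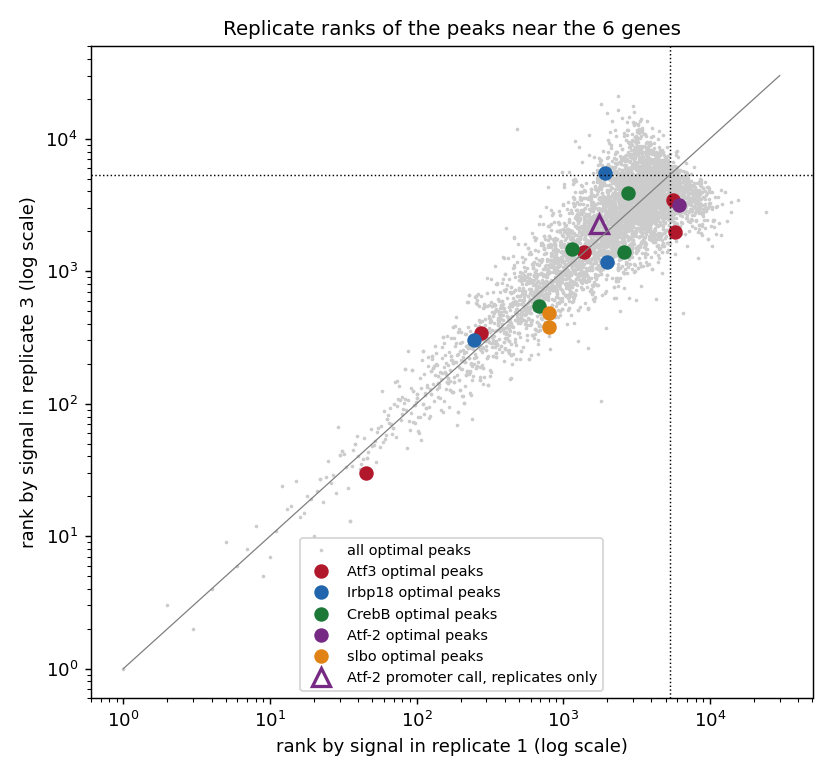
Rank by signal of optimal peaks in replicate 1 (x axis) and replicate 3 (y axis), both on log scales. Optimal peaks with an overlapping call in both replicates are in grey, and the peaks near the 6 genes are in colour. Optimal peaks without a call in a replicate are not drawn. Dotted lines mark rank 5321, and the open triangle is the Atf-2 promoter call, with ranks of 1754 and 2274, among the coloured points although it is absent from the optimal list.

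Atf-2 (FBgn0265193), whose product is a target of the p38 stress kinase in flies, had no promoter summit in the optimal list, yet both replicates called a peak at its promoter. The gene is short (chr2R:24870108-24871509, plus strand) with 1 TSS. In replicate 1 the call (chr2R:24869787-24870196) had a signal of 80.1 and rank 1754, and its summit lay 116 bp upstream of the TSS. In replicate 3 the call (chr2R:24869769-24870212) had a signal of 71.03 and rank 2274, with its summit 117 bp upstream. The summits were 1 bp apart, and both calls ranked above the CrebB summit at the internal promoter in the same replicate. The pooled list held no call at this site among its 30000, and its nearest summit was 4934 bp away. The optimal list was drawn from the pooled list, so the site could not enter it.

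Such sites were rare. Of the first 5321 calls of replicate 1, 4151 overlapped one of the first 5321 of replicate 3, and 14 of these (0.337%) had no overlapping pooled call. Counted on promoter summits among the first 5321 calls of both replicates, 4 of the 6 genes had one, Atf-2 now among them, where 25.2% of protein-coding genes did. Why the pooled list lacks the site was not tested.

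The only optimal summit within 5 kb of Atf-2 lay 3417 bp beyond its 3′ end and 14 bp from the TSS of CG16896 (chr2R:24874708-24875143), with a TSS of CG30423 also within 1000 bp. It was weak, with a signal of 90.2 and rank 4350, and ranked 6151 and 3148 in replicates 1 and 3.

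slbo (FBgn0005638), the fly C/EBP gene required for border cell migration in the ovary, had 2 strong summits, both beyond its 3′ end. They lay 1958 and 3788 bp past the end of the gene (chr2R:24331522-24334307, minus strand), within the lncRNA gene CR44810. The nearer one (chr2R:24329469-24329670) was 166 bp from a TSS of that lncRNA, with a pooled signal of 276 and rank 590, and ranks of 798 and 484 in replicates 1 and 3. Its signal was 119.9 in replicate 1 and 155 in replicate 3. The farther one (chr2R:24327643-24327877) was in an intron of the lncRNA, with a signal of 288 and rank 546, and ranks of 806 and 379. Its signal was 119.3 in replicate 1 and 170.5 in replicate 3. Replicate 1 placed both below the CrebB promoter peak and replicate 3 placed both above it, so the order of these 3 sites was not settled by the replicates. The same was true between the slbo summits, which swapped places.

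The promoter of slbo itself had weak calls alone. The pooled list held a call 58 bp upstream of a TSS with a signal of 50.8, rank 9247 and a −log10 q of 1.71. The matching calls ranked 17493 in replicate 1 and 7408 in replicate 3.

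tj (FBgn0000964, chr2L:19464267-19467758), which encodes a large Maf factor of somatic gonad cells, had no summit in the optimal list and no call of any strength within 5 kb in the pooled list. Replicate 1 had a single promoter call, 428 bp upstream of the TSS (chr2L:19463634-19464043), with a signal of 20.98, rank 12415 and a −log10 q of 1.00. Replicate 3 had none in that window. The nearest optimal summit lay 10643 bp from the gene and 134 bp from a TSS of Top2, the topoisomerase II gene.

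The order of promoter signal among the 3 genes with optimal promoter peaks was Atf3, Irbp18 and CrebB in the pooled list and in both replicates. Taken over all 15 summits, 6 ranked higher in replicate 1 and 9 in replicate 3, and 11 were within the first 5321 calls of both. In the whole optimal list this share was 78.6%. The 4 summits outside were at CG11403 and in an Atf3 intron, beside Atf-2 and beside Irbp18, and 3 of those 4 fell short in replicate 1.

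Summits were also counted per length of window, and these windows take in parts of neighbouring genes. Windows of the gene and 5 kb on each side held 2.79 summits per 10 kb at Irbp18, 1.86 at CrebB, 1.56 at slbo, 1.18 at Atf3, 0.877 at Atf-2 and 0 at tj. The median over protein-coding genes was 0.553 and the mean 0.736. Every Irbp18 summit lay nearest to a TSS of APP-BP1 or JIL-1, and the slbo summits to one of CR44810. The Atf-2 summit lay nearest to CG16896, and the last Atf3 summit to CG11403. The genes were chosen with their binding known, so nothing is read from these values. Atf3, with the most summits, is also the longest of the 6 genes. Over all protein-coding genes, 340 (2.44%) had 5 or more summits within 5 kb.

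**Figure D3:**
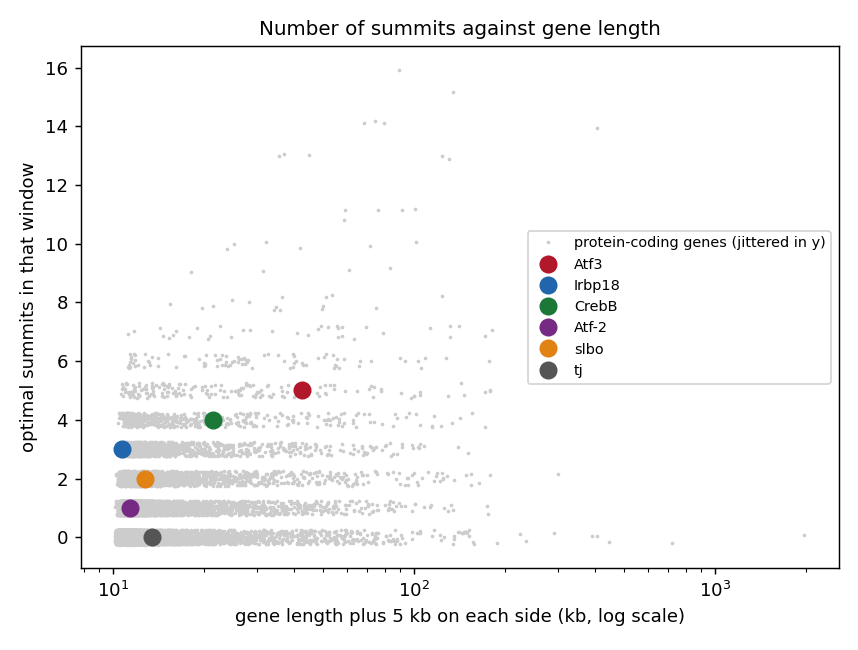
Number of optimal summits within the gene and 5 kb on each side (y axis) against the length of that window in kb (x axis, log scale), for protein-coding genes (grey, jittered vertically) and the 6 genes (coloured). Atf3 has 5 summits in the longest window of the set, and Irbp18 has 3 in the shortest.

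The bases at the summits did not hold the palindromic sites that ATF and CREB proteins bind. Motifs were searched on both strands within 50 bp of each of the 15 summits. The CRE palindrome TGACGTCA was at 0 of 15 and at 0.226% of all optimal summits. The CRE half-site TGACG, which lies within the palindrome, was at 0 of 15 and at 8.64% of all. The AP-1 site TGANTCA was at 0 of 15 and at 2.54% of all, and the C/EBP site TTGCNNAA was at 0 of 15 and at 8.4% of all. The 15 summits are few, cluster at the same genes and belong to genes chosen with their binding known. These counts of 0 were therefore not tested against the shares in the whole list. In the whole peaks, the CRE half-site was in 4 of 15 and the C/EBP site in 2 of 15, against 30.5% and 28.9% of all peaks. The CARE site was in 3 of 15 whole peaks and in 5.53% of all.

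Matches that were present fell at promoter elements and at 1 Atf3 site. The CARE site of the Atf3 intron, printed above, was the only one within 50 bp of these summits, and 1.47% of all optimal summits had one. The DNA replication-related element TATCGATA, bound by the promoter factor DREF, was at 2 summits, those beside CG16896 and JIL-1, and at 3.55% of all. Motif 1 was at the internal CrebB summit alone, and at 1.64% of all. The E-box CACGTG was at 0 of 15 and at 1.32% of all. GC content within 50 bp had a median of 35.6% at the 15 summits (21.8 to 51.5), inside the interquartile range of 31.7 to 45.5 of the whole list.

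Other bZIP genes gave the setting. Of 19 others, 10 (52.6%) had a promoter summit, where 30.3% of protein-coding genes did. REPTOR, the gene of the tagged protein, had a strongest promoter peak of 955 (rank 33), so Atf3 was close behind it. Extra copies from the transgene and binding cannot be told apart at REPTOR. The signals of Irbp18 (383) and CrebB (272) stood above those of the remaining bZIP genes. The highest of those was REPTOR-BP with 221, at a summit also within 1000 bp of a TSS of Rsf1. The Irbp18 peak lay nearer to a TSS of APP-BP1 than to that of Irbp18. The genes described here were chosen with their binding known, so nothing is read from this order.

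**Figure D4:**
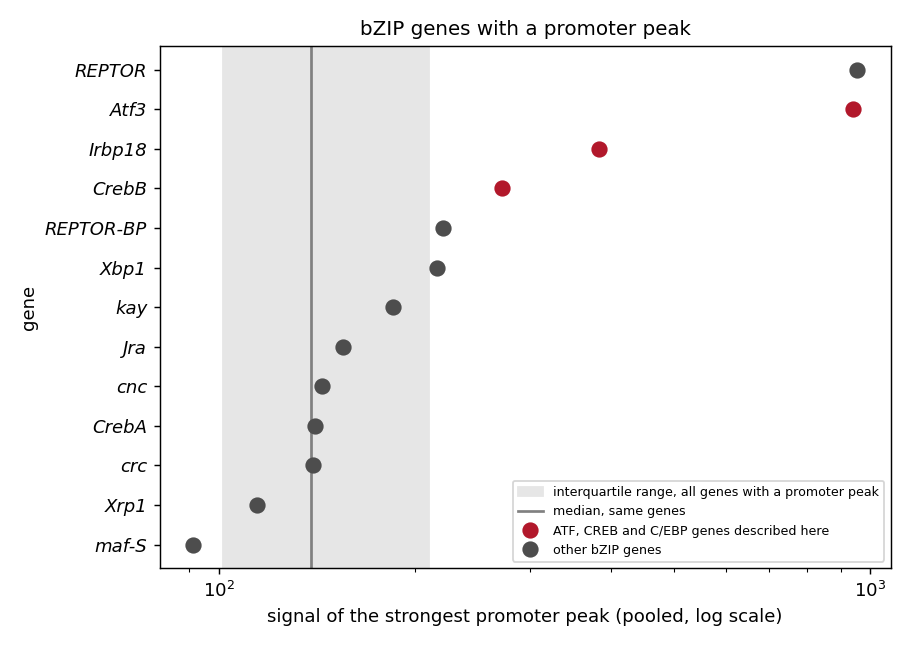
Signal of the strongest promoter peak (pooled, log scale) for the bZIP genes that had one, with the 3 described here in red and the 10 others in grey. The band is the interquartile range (102 to 210) and the line the median (138) over all protein-coding genes with a promoter peak. Atf3, Irbp18 and CrebB lie to the right of the band, and they were chosen with their binding known.

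Stress factors followed. Xbp1, which acts in the unfolded protein response, had a peak of 216 at 33 bp from its TSS. kay and Jra, the fly Fos and Jun genes, had 185 and 155. cnc, the fly relative of Nrf2, had 6 promoter summits, the strongest with 144, and its partner maf-S had 91.3, at a site also within 1000 bp of TSSs of CG11110 and rig and nearer to another gene's TSS than its own. CrebA, a secretory pathway regulator, had 141, and crc, the fly ATF4 gene, had 139.7 at a promoter shared with Mondo. Xrp1, the partner of Irbp18, had 114.5, with ranks of 2790 and 3420, against 246 and 303 for the Irbp18 peak. The other 9 had no promoter summit: Atf6, vri, Pdp1, gt, sisA, CG7786, CG14014, CG16813 and CG16815. Of these, Pdp1 still had 6 summits within 5 kb, and it had a promoter summit among the first 5321 calls of both replicates. vri had one among those of replicate 3 but not of replicate 1.

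A further list held genes of coactivators and of kinases acting on or upstream of CREB and ATF-2, and a calcineurin phosphatase gene. Promoter summits were at 8 of its 17 genes (47.1%), where 30.3% of protein-coding genes had one. The strongest were at Sik3 (258), nej, the fly CBP gene (242), Mekk1, a kinase above p38 (141), and p38a (135). The CREB coactivator Crtc and Pka-C1, the catalytic subunit of the cAMP-dependent kinase, had none, with 3 and 2 summits within 5 kb. Genes that act with slbo in border cells or in JAK-STAT signalling had them at 9 of 12 (75%), against the same 30.3%. The strongest were at apt, which limits STAT signalling in border cells (249), usp, the partner of the ecdysone receptor (207), Stat92E (186) and dome, the JAK-STAT receptor (135). The median of the strongest promoter signal was 133 in the former list and 134 in the latter, and 138 over all protein-coding genes with a promoter summit. Other genes had a TSS within 1000 bp of the summits at nej (CR42657), p38a (CG6178), apt (CG30184), usp (Actn and CG4313) and dome (Ubqn). These lists were not tested, and nothing particular to them is claimed.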

How the data were processed

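ChIP-seq peak lists on dm6 were used as deposited. Per the deposited notes, each replicate list came from the alignments of that replicate and the pooled list from those of both, each with the file that the notes also list as a source of control-normalized tracks. Also per these notes, the optimal list kept pooled calls past an irreproducible discovery rate (IDR) cut-off. The aligner and caller were not given in the sources used here. Each call carried a signal and a −log10 q from the authors' caller, and the deposited summit offset was added to its start. Calls were ranked by signal within a list. The dm3 lists were not used.

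Gene models came from Ensembl release 115 on the same assembly, without transposable elements, and sequence from the Release 6 reference. A replicate's value at a peak is that of its strongest call overlapping by at least 1 bp. Python 3.11.15, numpy 2.4.6, pandas 2.3.3 and matplotlib 3.10.9 were used, and the summit and motif rules were checked on planted data.

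The genes and lists were chosen with earlier results of these data known. Named were the 6 genes, every other bZIP gene with a promoter summit, the 4 strongest genes of the other lists, neighbours with a TSS within 1000 bp of a promoter summit of the 6, and the pooled calls just under the optimal list. Neighbours at the other summits and in the lists, bZIP genes without a promoter summit, CG33947, Crtc and Pka-C1 were named after their values were seen. Of 20 other bZIP names, CG12850 is a RefSeq synonym of Atf-2 and was dropped. With 1 group no comparison between conditions was possible, and no test was made.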

Additional observations from a re-analysis of the deposited data

How the results depend on the processing

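The count of the 6 genes with a promoter summit was 3 under TSS windows of 500 and 2000 bp (27% and 35.3% of protein-coding genes), protein-coding transcripts alone (30.3%), peak overlap (31.4%) and the stricter list of peaks at or above the median signal (17.5%). It was 2 with each summit given to its nearest TSS (21.9%), which removed Irbp18. It was 4 from replicate 3 alone (29.6%) and from replicate 1 alone (30.4%), which added Atf-2. The other bZIP genes ranged from 8 to 12 of 19, and the border cell list from 7 to 9 of 12. The kinase and coactivator list fell to 5 of 17 in the stricter list, which holds fewer peaks and has the 17.5% background above, and ranged up to 10. Pdp1 gained a promoter summit by peak overlap, at 2000 bp and from either replicate alone. The 15 summits became 11 within 2 kb, 21 within 10 kb, and 10 in the stricter list. They were 14 without replicate 3 and 16 without replicate 1. The count in both replicates at once was chosen after seeing the data. No paired analysis was possible because there was a single group. Depth was unknown, so a missing call does not show that binding was absent.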

Other observations

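The promoter of Atf-2 was not the strongest site that both replicates called and the pooled list lacked. Of the 14 such sites, the one 38 bp from the TSS of Mkp ranked highest, at 616 in replicate 1 and 579 in replicate 3, and the nearest pooled summit was 4889 bp away. Sites within 210 bp of the TSSs of Ank2, PolD2, Vha68-1, TH1, CG4592 and ss were also among the 14. Overlap with pooled calls was judged on the replicate 1 call alone. At Ank2 the replicate summits lay 251 bp apart, and a pooled summit lay 232 bp from that of replicate 1. A pooled call may therefore cover part of that site. At Vha68-1 the nearest pooled summit was 846 bp away. The replicate summits were within 20 bp of each other at 7 of the 14. On promoter summits, 43 of the 3515 protein-coding genes with one among the first calls of both replicates had none in the optimal list. The cause was not tested.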
